A study of Mus musculus with 18 samples.

Results

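The genes described here are 9 markers of astrocytes, Gfap, Aqp4, Acsbg1, Atp1b2, S100b, Gja1, Gjb6, Fgfr3 and Aldh1l1, in the mouse hippocampus. Their members are all probe sets of the Affymetrix Mouse Genome 430 2.0 array that the platform annotation assigns to 1 of these symbols alone, 22 of 45101 probe sets and 9 of 18194 genes, over 18 arrays. A probe set is a group of short oligonucleotides that reads 1 transcript, and its signal is a relative brightness that cannot be compared with the signal of another probe set. Of the 22 probe sets, 18 had a mean signal above 20 and were tested, among 22932 tested in all, and each of the 9 genes kept at least 1. The mice were C57Bl/6 males (C57BL/6J in the study's methods), 10 weeks old when the experiments began. Intermittent hypoxia treatment (IHT) is a model of sleep-disordered breathing, in which the inspired oxygen fell from 21% to 5% and recovered in cycles of 3 min (1 min of nitrogen and 2 min of air), for 8 h per day. There were 6 groups of 3 arrays: Ctrl (control mice), IH5D (IHT for 5 days), IH5DR2 (IHT for 5 days, then recovery in normoxia for 2 days), Ctrl28 (control mice kept 28 days in normoxia), IH28D (IHT for 28 days) and 12 m (control mice reared for 12 months). The labels do not say whether each array came from a separate mouse, so the p-values reflect only how far these arrays scatter, which may be technical. Their number limits the precision of every value.

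Astrocytes are the glial cells that take up glutamate and potassium from the extracellular space, supply neurons with metabolites, and wrap blood vessels with their endfeet. They are joined into a network by gap junctions. After injury they can become reactive, a state in which their intermediate filament protein Gfap is commonly raised. In whole hippocampus, fewer astrocytes and less RNA per astrocyte cannot be told apart. The 9 genes cover the cytoskeleton (Gfap), the water channel of the endfeet (Aqp4), gap junctions (Gja1 and Gjb6), a subunit of the sodium pump (Atp1b2), a growth factor receptor (Fgfr3), lipid and folate metabolism (Acsbg1 and Aldh1l1) and a calcium-binding protein (S100b).

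Some arrays stood apart from the others before any comparison of the marker genes. For the control transcripts Gapdh and Actb, the log2 difference between probe sets at the 3' and at the 5' end grows as RNA breaks down, and is called the 3'/5' gap here. It was 2.39 on Ctrl28 array 1 and 0.82 and 0.97 on the others of that group, 0.62 to 0.86 in 12 m and 0.33 to 0.53 elsewhere. The summed signal of 10 choroid plexus genes was 759 to 1808 in 12 m against 1906 to 20167 in Ctrl and 18049 to 22323 in Ctrl28, and that of 8 ependymal genes was 156 to 269 in 12 m against 632 to 939.8 in Ctrl. The choroid plexus sum was also lowest in its group on Ctrl array 3 (1906), IH5D array 3 (3394) and IH28D array 3 (5141). On 12 m array 3, 7 neocortex genes summed to 5257 and 10 genes of hippocampal neurons to 2476, whereas the other 12 m arrays had 2070 and 2118 for neocortex and 4988 and 5115 for hippocampal neurons. That array carries the hippocampus label, and its markers lean to neocortex. The summed signal of 39 further astrocyte genes ranged from 36862 to 42879 over the 18 arrays, so astrocyte RNA was present on all of them. Whether the Ctrl28 arrays were run together with the rest is not stated, so such a batch and the group cannot be told apart.

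**Figure D1:**
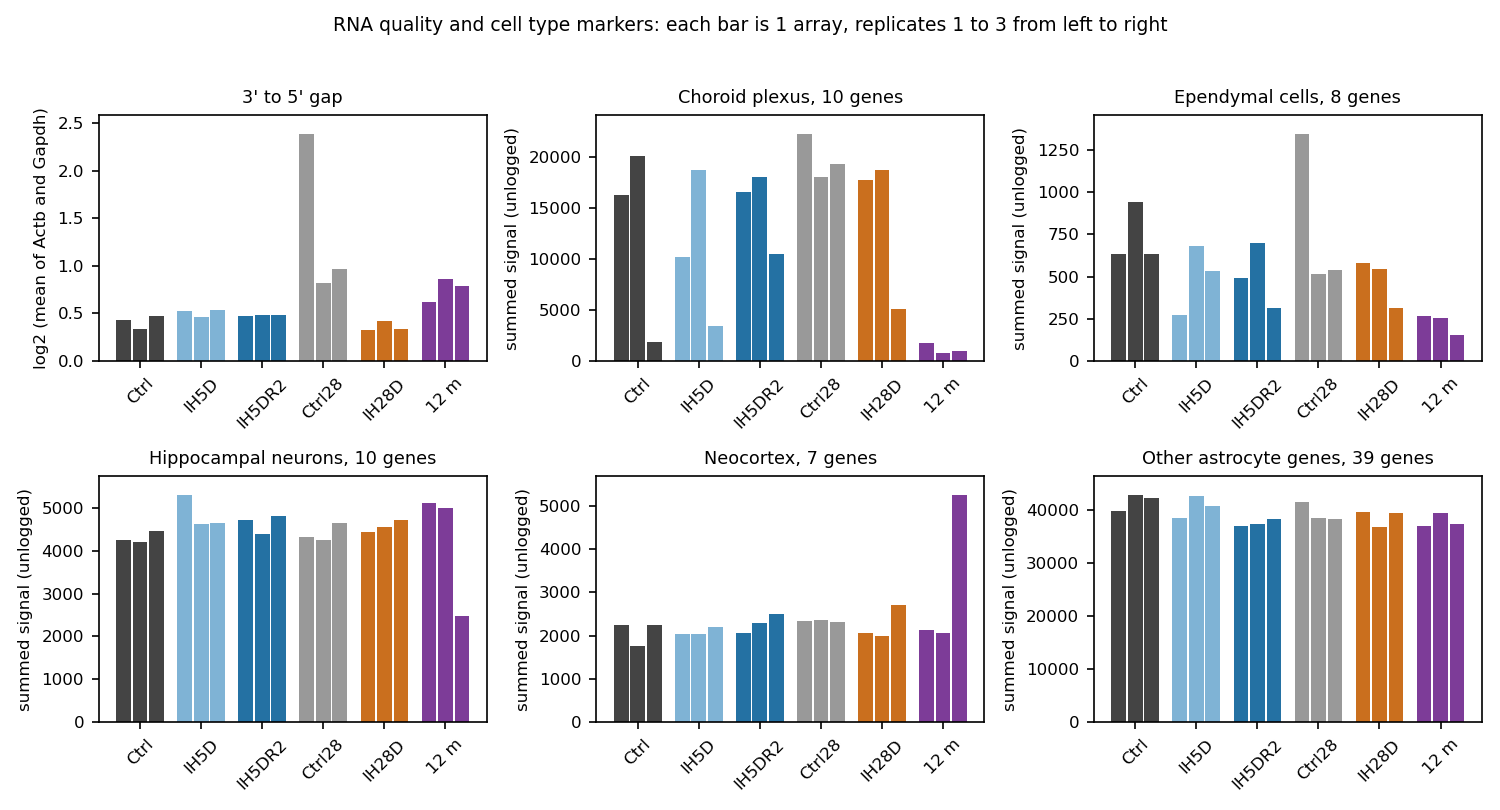
The 3'/5' gap (log2, mean of Actb and Gapdh) and the summed unlogged signals of 5 marker lists, with 1 bar per array in the order of the replicate numbers. Ctrl28 array 1 has the largest gap, 2.39, choroid plexus and ependymal signals are low on all 12 m arrays, and 12 m array 3 has 5257 for neocortex against 2476 for hippocampal neurons.

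Few marker probe sets passed after IHT, and more did at 12 months and between the young control groups. The shares of all tested probe sets differed between these comparisons in the same way. Counts are of probe sets with an adjusted p below 0.05, in limma with Benjamini-Hochberg adjustment over all 22932. In IH5D against Ctrl, none of the 18 passed, while 5.59% of all tested probe sets were higher and 0.663% lower. Without adjustment 4 of the 18 were below 0.05 in limma, against 27.9% of all tested probe sets. The methods' t-test found 0 of the 18 with adjustment and 3 without. In IH5DR2 against Ctrl, 1 was higher (Aqp4) and none lower, against 3.88% higher and 0.82% lower overall. In IH5DR2 against IH5D, none passed, as for all features (0% higher and 0% lower). Without adjustment 3 of the 18 were below 0.05 in limma, against 3.82% of all tested. By the methods' t-test 2 of the 18 were. In IH28D against Ctrl28, none was higher and 1 lower (Gja1), against 5.62% and 2.17%. In 12 m against Ctrl, 1 was higher and 7 lower, or 5.56% and 38.9% of the 18, against 26.5% and 24.1% of all. The 7 lower probe sets came from 5 genes, Gfap with 3, Acsbg1, Atp1b2, Fgfr3 and Aldh1l1, and the higher one was Aqp4. The methods' t-test with adjustment called 1 of the 18 there, and 6 without. In no comparison are shares of all tested probe sets by the methods' t-test given. Its counts therefore cannot be set against all features. In Ctrl28 against Ctrl, 3 were higher and 6 lower, or 16.7% and 33.3% of the 18, against 16.8% and 16.1% of all. The median log2 change of the 18 was -0.13 in 12 m against Ctrl and -0.23 in Ctrl28 against Ctrl, beside -0.08 and 0.03 for all features. Both comparisons use the same Ctrl arrays, so the 2 sets of values are not independent. The arrays of 12 m and Ctrl did not overlap in 9 of the 18 probe sets, against 61.3% of all tested. Those of Ctrl28 and Ctrl did not overlap in 8 of the 18, against 35.7% of all. All arrays share 1 estimate of the spread, and without Ctrl28 array 1 the counts were 4 in IH5D, 5 in IH5DR2, 5 in IH28D against Ctrl28 (4 higher and 1 lower), 12 in Ctrl28 against Ctrl and again 8 in 12 m against Ctrl. Without 12 m array 3, 6 passed in 12 m against Ctrl (1 higher and 5 lower). The shares of all tested probe sets in these refits are not given, so these counts cannot be set against all features.

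With the control exchanged, the counts were different. In IH28D against Ctrl, 1 was higher and 3 lower (19.8% and 11.7% of all), and in 12 m against Ctrl28, none was higher and 3 lower (9.87% and 6.97% of all). The change after 28 days of IHT differed from that after 5 days, each against its own control, in 1 of the 18 probe sets (Gja1), against 7.12% of all in either direction. On the log2 scale the median of all features in 12 m against Ctrl moved from -0.08 to -0.17 with quantile normalization and to -0.20 with median centring of the arrays, and no called member changed direction under either. Median centring also moved the balance of higher and lower calls among all features, to 23.6% and 30.9% in 12 m against Ctrl, 2.28% and 0.929% in IH5DR2 against Ctrl, 3.68% and 3.09% in IH28D against Ctrl28, 16.7% and 17.4% in IH28D against Ctrl, and 8.32% and 10.4% in 12 m against Ctrl28.

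**Figure D2:**
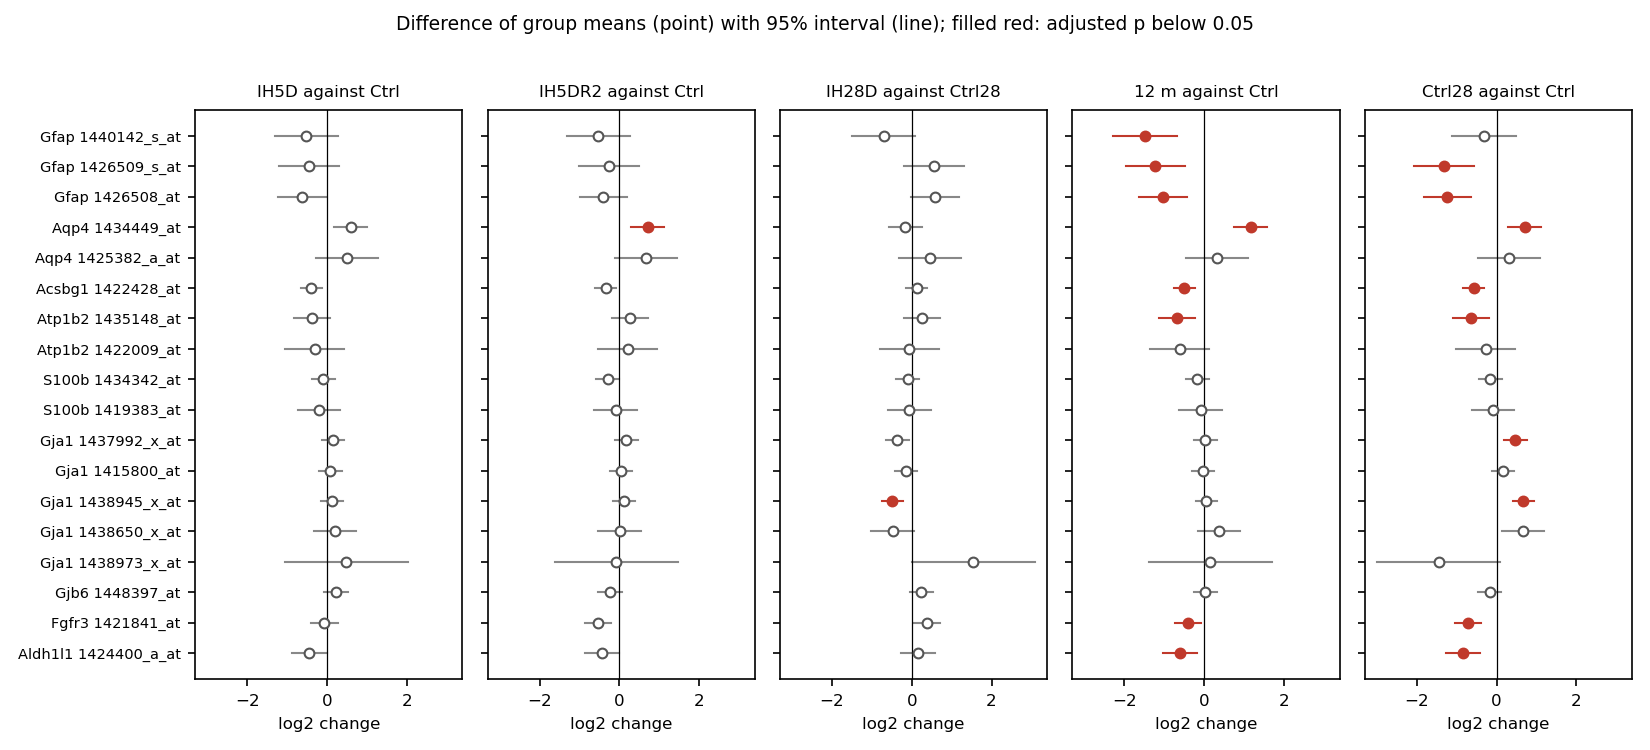
Log2 change between group means (points) with its 95% interval (lines) for the 18 tested probe sets in 5 comparisons. Filled red points passed an adjusted p of 0.05: 8 in 12 m against Ctrl, 9 in Ctrl28 against Ctrl, 1 in IH5DR2 against Ctrl (Aqp4), 1 in IH28D against Ctrl28 (Gja1) and none in IH5D against Ctrl.

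Gfap, the glial fibrillary acidic protein of the astrocyte cytoskeleton, was lower at 12 months in all 3 of its probe sets. Probe set 1440142_s_at had signals of 314, 444 and 358 in Ctrl, 428, 254 and 236 in Ctrl28 and 234, 181 and 54.1 in 12 m. The 12 m arrays lay below all Ctrl and all Ctrl28 arrays, and array 3, the one with the neocortex markers, was lowest. The fall from 372 ± 66.0 (SD, n = 3) to 156 ± 92.6 passed (log2 change -1.48, SE 0.38, adjusted p = 0.00401). Of all tested probe sets, 61.3% did not overlap between 12 m and Ctrl, and 31.6% between 12 m and Ctrl28. Probe set 1426509_s_at went from 116, 128 and 167 to 86.7, 73.9 and 30.5 (log2 change -1.22, SE 0.36, adjusted p = 0.00931), and 1426508_at from 81.5, 124 and 155 to 77.1, 53.4 and 44.3 (log2 change -1.03, SE 0.28, adjusted p = 0.00618). Without 12 m array 3 the log2 changes were -0.84 (adjusted p = 0.0140), -0.76 (adjusted p = 0.0623) and -0.86 (adjusted p = 0.0323), so the size for 1440142_s_at shrank by over 1.5 times and 1426509_s_at lost its call. Against Ctrl28 the probe sets parted: 1440142_s_at was lower in 12 m (log2 change -1.16, SE 0.38, adjusted p = 0.0428), while 1426509_s_at and 1426508_at had log2 changes of 0.10 and 0.20 (adjusted p = 0.868 and 0.656). Without 12 m array 3 the former was -0.52 (adjusted p = 0.195). The choroid plexus and ependymal sums moved with this comparison and their part in it was not tested.

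After IHT, Gfap was below Ctrl on every array of IH5D, without passing the test. The IH5D signals of 1440142_s_at were 242, 279 and 251, all under the lowest Ctrl value of 314 (log2 change -0.52, adjusted p = 0.372). The other probe sets also did not overlap with Ctrl, at 102, 96.0 and 99.5 and at 74.6, 76.7 and 74.8 (log2 changes -0.45 and -0.62, adjusted p = 0.412 and 0.162). By this measure of separation alone, 39.99% of all tested probe sets did not overlap between IH5D and Ctrl. In IH5DR2, 1440142_s_at stood at 342, 203 and 238, with 1 array inside the Ctrl range. In IH28D it stood at 194, 152 and 201, below all Ctrl28 arrays (log2 change -0.71, SE 0.38, adjusted p = 0.263). The other probe sets pointed the other way in that comparison (0.55 and 0.58, adjusted p = 0.368 and 0.213), and read 108, 38.5 and 37.8 and at 78.9, 40.7 and 37.1 in Ctrl28, where array 1 was far above the rest. Without that array, they were higher in IH28D than in Ctrl28, at 1.05 (adjusted p = 0.0224) and 0.93 (adjusted p = 0.0202). In Ctrl28 against Ctrl these same probe sets were lower (log2 change -1.33, SE 0.36, adjusted p = 0.00943, and log2 change -1.24, SE 0.28, adjusted p = 0.00332), and 1440142_s_at did not pass (log2 change -0.32, adjusted p = 0.539). Ordered by mean log2 signal, 1440142_s_at ran from Ctrl over Ctrl28, IH5D, IH5DR2 and IH28D to 12 m, and of these neighbours only IH5DR2 and IH28D did not overlap.

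The water channel Aqp4, which sits in the endfeet around vessels, was the only marker gene that was higher at 12 months. Probe set 1434449_at had signals of 365, 274 and 328 in Ctrl and 808, 852 and 537 in 12 m. All 12 m arrays were above all Ctrl arrays, and array 3 was the lowest of them. The rise from 322 ± 46.1 (SD, n = 3) to 732 ± 170.4, or 2.24-fold, passed (log2 change 1.17, SE 0.20, adjusted p = 0.000201), and without 12 m array 3 it was 1.37 (adjusted p = 0.000158). In Ctrl28 the signals were 382, 605 and 615, with array 1 nearest to Ctrl (log2 change 0.71, SE 0.20, adjusted p = 0.0116). Against Ctrl28, 12 m did not pass (log2 change 0.46, SE 0.20, adjusted p = 0.113), and did so without 12 m array 3, at 0.67 (adjusted p = 0.0379).

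Aqp4 was also above Ctrl on every array of the 5-day IHT groups. Of all tested probe sets, 39.99% did not overlap between IH5D and Ctrl, and 39.4% between IH5DR2 and Ctrl. The signals of 1434449_at were 508, 462 and 479 in IH5D (log2 change 0.59, SE 0.20, adjusted p = 0.0714) and 452, 621 and 514 in IH5DR2 (log2 change 0.71, SE 0.20, adjusted p = 0.0471), against at most 365 in Ctrl. Only the latter passed. It passed in 7 of 28 alternative analyses, with adjusted p between 0.00521 and 0.220, and the IH5D value passed without Ctrl28 array 1, at 0.59 (adjusted p = 0.0134). Between IH5DR2 and IH5D the log2 difference was 0.12 (95% interval -0.29 to 0.53, adjusted p = 1). In IH28D the signals of 427, 509 and 461 overlapped with Ctrl28 (log2 change -0.17, 95% interval -0.58 to 0.24) and lay above Ctrl (log2 change 0.54, SE 0.20, adjusted p = 0.0454). The second tested probe set, 1425382_a_at, passed nowhere. It read 101, 71.4 and 85.2 in Ctrl, 132, 121 and 110.5 in IH5D, 135, 142 and 129 in IH5DR2 and 123, 151 and 159 in IH28D, with no overlap between Ctrl and these groups, and 42.0, 158 and 176 in Ctrl28, where array 1 fell out low. Without Ctrl28 array 1 it passed in IH5DR2 against Ctrl, at 0.67 (adjusted p = 0.0168), and in Ctrl28 against Ctrl, at 0.97 (adjusted p = 0.000870). Between IH28D and Ctrl, 51.7% of all tested probe sets did not overlap. By mean log2 signal of 1434449_at the groups ran from 12 m over IH5DR2, Ctrl28, IH5D and IH28D to Ctrl, and only IH28D and Ctrl did not overlap among neighbours. The remaining probe set, 1447745_at, had signals of 5.59 to 34.1 and was not tested.

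**Figure D3:**
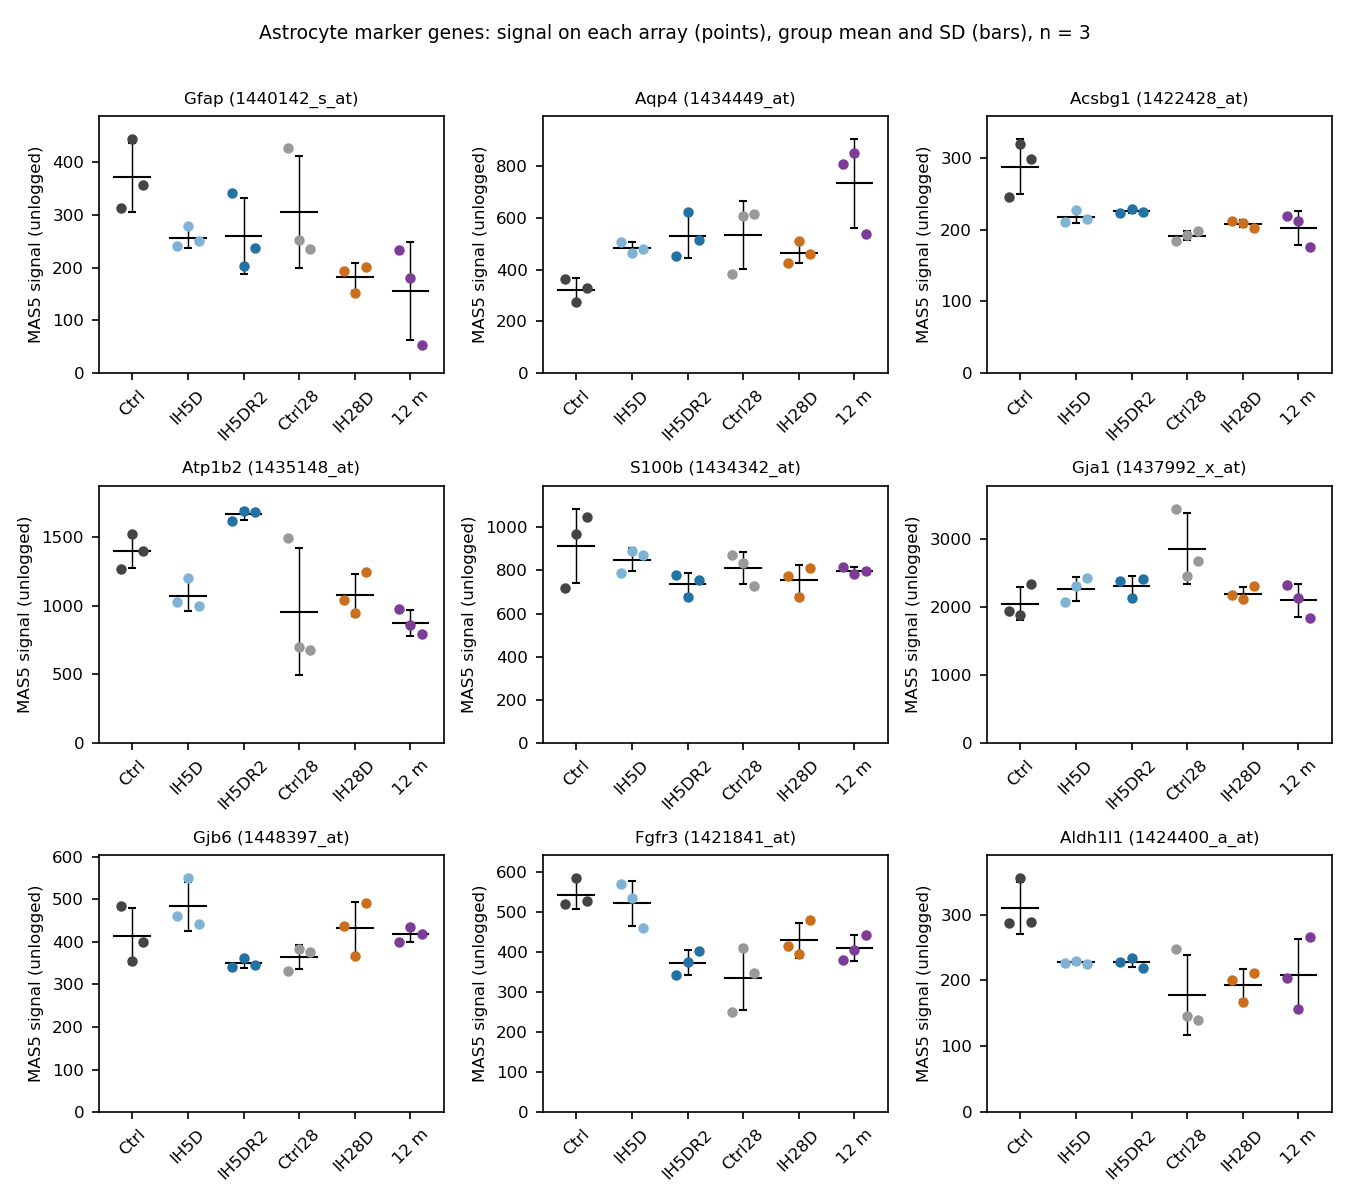
Unlogged MAS5 signal of the brightest probe set of each gene, with 1 point per array and the group mean and SD (n = 3) as bars. Gfap is highest in Ctrl and lowest in 12 m, Aqp4 is highest in 12 m and lowest in Ctrl, and in Ctrl28 array 1 lies above the other arrays for Gfap, Atp1b2, Gja1 and Aldh1l1.

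The gap junction protein Gja1 (connexin 43), which couples astrocytes to each other, passed in neither direction in 12 m against Ctrl and was high in Ctrl28. Probe set 1437992_x_at had signals of 1934, 1882 and 2332 in Ctrl, 3444, 2454 and 2669 in Ctrl28, 2168, 2112 and 2311 in IH28D and 2320, 2129 and 1834 in 12 m. All Ctrl28 arrays were above those of the other groups, and array 1 was highest. The difference between 12 m and Ctrl was 0.03 on the log2 scale (95% interval -0.25 to 0.32). Probe set 1438945_x_at was likewise highest in Ctrl28, with 993, 903 and 1070 in Ctrl, 1785, 1363 and 1595 in Ctrl28 and 1157, 1052 and 1156 in IH28D. It was higher in Ctrl28 than in Ctrl (log2 change 0.67, SE 0.13, adjusted p = 0.00100), as was 1437992_x_at (log2 change 0.47, SE 0.13, adjusted p = 0.0137), and lower in IH28D than in Ctrl28 (log2 change -0.49, SE 0.13, adjusted p = 0.0280). In 12 m it was 1082, 1139 and 872, below Ctrl28 (log2 change -0.62, SE 0.13, adjusted p = 0.00439), and 1437992_x_at was too (log2 change -0.44, SE 0.13, adjusted p = 0.0337). A fit with the 3'/5' gap as a covariate, which is largest in Ctrl28, took the calls of 1437992_x_at in Ctrl28 against Ctrl, at 0.20 (adjusted p = 0.282), and of 1438945_x_at in IH28D against Ctrl28, at -0.29 (adjusted p = 0.263), but not that of 1438945_x_at in Ctrl28 against Ctrl, at 0.48 (adjusted p = 0.0170).

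The other probe sets of Gja1 did not pass in any of the main comparisons. Probe set 1415800_at, the only tested one of the gene without the suffix that marks possible cross-hybridization, had signals of 1521, 1528 and 1776 in Ctrl and 1729, 1799 and 1886 in Ctrl28 (log2 change 0.17, adjusted p = 0.339). 1438650_x_at had 909.6, 452 and 572 and 1341, 849.7 and 822 (log2 change 0.66, SE 0.25, adjusted p = 0.0525). 1438973_x_at was dim, at 5.16 to 84.1 over all arrays, and 1415801_at, at 1.54 to 29.3, was not tested. After 5 days of IHT, 1437992_x_at stood at 2069, 2303 and 2426 (log2 change 0.15, 95% interval -0.13 to 0.43), and after recovery at 2385, 2128 and 2407. The effect of IHT on 1438945_x_at was -0.49 after 28 days and 0.13 after 5 days, and the difference of -0.62 passed (SE 0.18, adjusted p = 0.0468). It passed in 4 of 27 alternative analyses.

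Gjb6 (connexin 30), the second connexin of astrocytes, passed in no comparison. Its signals were 485, 356 and 401 in Ctrl, 459.8, 549 and 442 in IH5D, 340.3, 363 and 346 in IH5DR2, 332, 384 and 375 in Ctrl28, 438, 366 and 491 in IH28D and 401, 434 and 419 in 12 m. IH5DR2 lay below IH5D on all arrays, with a log2 difference of -0.46 (95% interval -0.76 to -0.17, adjusted p = 1). Between IH5DR2 and IH5D, 15.1% of all tested probe sets did not overlap. For 12 m against Ctrl the interval of the log2 change of Gjb6 was -0.27 to 0.32.

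**Figure D4:**
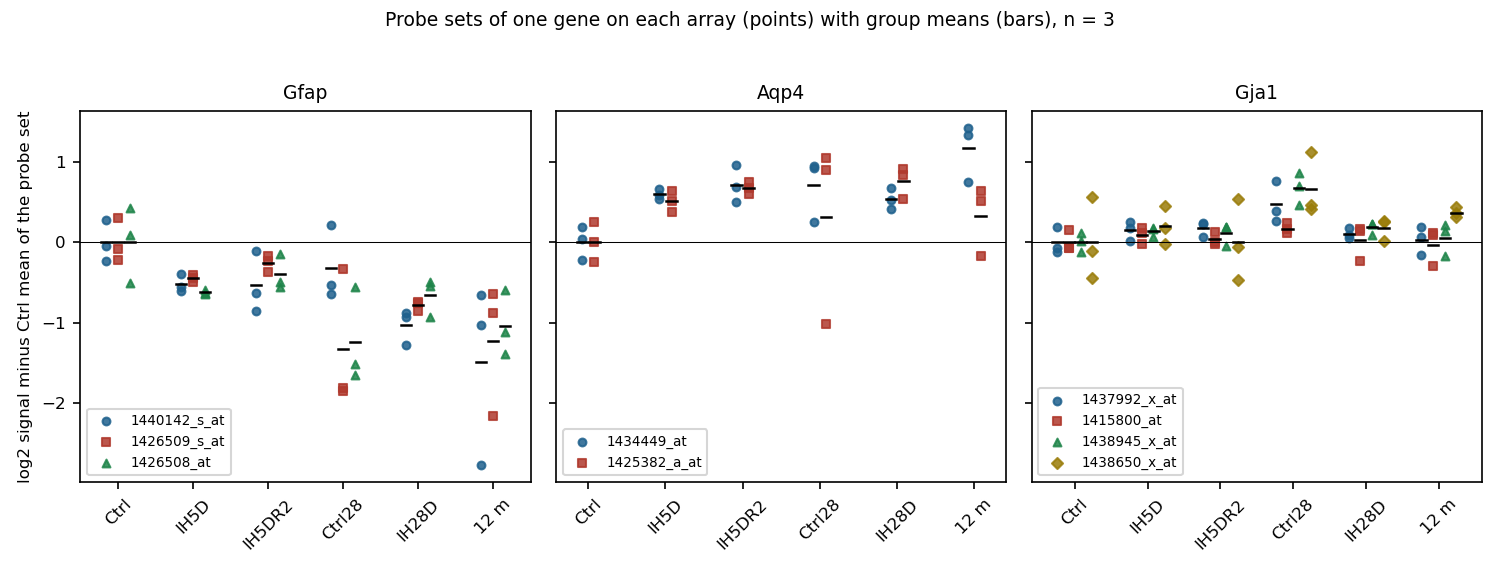
Log2 signal of each probe set of Gfap, Aqp4 and Gja1 minus its own Ctrl mean, with 1 point per array and bars for group means (n = 3); the dim Gja1 probe set 1438973_x_at is left out. The probe sets of Gfap part in Ctrl28 (-0.32 against -1.33 and -1.24), and those of Aqp4 part in 12 m (1.17 against 0.32).

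Atp1b2, the beta subunit of the sodium pump that is prominent in astrocytes, was lower at 12 months. Probe set 1435148_at had signals of 1269, 1519 and 1401 in Ctrl and 974, 856 and 792 in 12 m, with no overlap (log2 change -0.68, SE 0.21, adjusted p = 0.0149). Without 12 m array 3 the change was -0.61 (adjusted p = 0.0503), and without Ctrl array 2 it was -0.61 (adjusted p = 0.0589). Against Ctrl28, 12 m differed by -0.03 (95% interval -0.48 to 0.42). In Ctrl28 the signals were 1490, 698 and 679. Array 1, with its large 3'/5' gap, was inside the Ctrl range and far above the others, and without it the change against Ctrl went from -0.65 (adjusted p = 0.0291) to -1.02 (adjusted p = 6.49e-06). The arrays of 5-day IHT and of recovery lay on opposite sides of Ctrl. Of all tested probe sets, 39.99% did not overlap between IH5D and Ctrl, 39.4% between IH5DR2 and Ctrl and 15.1% between IH5DR2 and IH5D. For 1435148_at, IH5D had 1024, 1201 and 995, all below Ctrl (log2 change -0.38, adjusted p = 0.252), and IH5DR2 had 1618, 1693 and 1685, all above it (0.26, adjusted p = 0.446). The difference between IH5DR2 and IH5D was 0.64 (95% interval 0.19 to 1.09, adjusted p = 1) and did not pass. In IH28D the signals were 1038, 948 and 1244, inside the wide range of Ctrl28 (log2 change 0.26, adjusted p = 0.487), and without Ctrl28 array 1 the change was 0.64 (adjusted p = 0.00237). The dim probe set 1422009_at had 14.5 to 41.0 over all arrays and passed nowhere.

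Fgfr3, a fibroblast growth factor receptor of astrocytes and their precursors, was lower in 12 m, in Ctrl28 and, short of the threshold, in IH5DR2. Its probe set 1421841_at read 519, 583 and 526 in Ctrl and 379.9, 404 and 443 in 12 m (log2 change -0.41, SE 0.16, adjusted p = 0.0370), with no overlap. The call was lost when any of 12 m arrays 1 and 2 or of the 3 Ctrl arrays was left out, with adjusted p up to 0.121. In Ctrl28 the signals were 251, 409.6 and 346, all below Ctrl (log2 change -0.72, SE 0.16, adjusted p = 0.00238). With the 3'/5' gap as a covariate the change was -0.34 (adjusted p = 0.0947), and 12 m against Ctrl was -0.28 (adjusted p = 0.0607). Against Ctrl28, 12 m lay on the other side (log2 change 0.31, SE 0.16, adjusted p = 0.175). The 5-day groups lay apart in this gene. IH5D had 570.1, 534 and 459.8, overlapping with Ctrl (log2 change -0.06, 95% interval -0.39 to 0.27), whereas IH5DR2 had 342, 374 and 403, below all arrays of both (log2 change -0.54, SE 0.16, adjusted p = 0.0532). Between IH5DR2 and IH5D the log2 difference was -0.48 (95% interval -0.81 to -0.15, adjusted p = 1). No overlap was found in 39.4% of all tested probe sets between IH5DR2 and Ctrl, and in 15.1% between IH5DR2 and IH5D. In IH28D the signals of 1421841_at were 394 to 478, overlapping with Ctrl28 and below all Ctrl arrays. The log2 change was 0.38 against Ctrl28 (SE 0.16, adjusted p = 0.145) and -0.34 against Ctrl (SE 0.16, adjusted p = 0.0994). Neither passed, and the direction turned with the control. The second probe set, 1425796_a_at, had 4.19 to 34.4 and was not tested.

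Acsbg1, an enzyme that activates long-chain fatty acids, was lower in 12 m and Ctrl28 than in Ctrl. Its signals were 245, 319 and 298 in Ctrl, 185, 193 and 197 in Ctrl28 and 219, 212 and 175 in 12 m. All arrays of the latter groups were below all Ctrl arrays, and Ctrl28 array 1 was close to the others. The falls passed in 12 m (log2 change -0.51, SE 0.13, adjusted p = 0.00340) and in Ctrl28 (log2 change -0.58, SE 0.13, adjusted p = 0.00248), and 12 m differed from Ctrl28 by 0.07 (adjusted p = 0.736). In IH5D the signals of 211, 227 and 214 and in IH5DR2 those of 223, 228 and 225 were also below Ctrl, without passing (log2 changes -0.40 and -0.34, adjusted p = 0.0634 and 0.101). In IH28D they were 212, 209.8 and 203, all above Ctrl28 (log2 change 0.12, adjusted p = 0.608) and below Ctrl (log2 change -0.46, SE 0.13, adjusted p = 0.0131). All 15 arrays outside Ctrl were below all 3 Ctrl arrays. Single groups did not overlap with Ctrl in 35.7% (Ctrl28) to 61.3% (12 m) of all tested probe sets. The share for all 15 arrays at once is not given.

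Aldh1l1, a folate enzyme that marks astrocytes throughout the brain, was likewise lower in 12 m and Ctrl28, and all 15 arrays outside Ctrl were below the Ctrl arrays. For this separation too, the share of all probe sets is not given. Probe set 1424400_a_at had signals of 287, 355 and 288 in Ctrl, 248, 146 and 140.0 in Ctrl28 and 203, 157 and 265 in 12 m. Array 1 of Ctrl28 and array 3 of 12 m were the highest of their groups, and none reached Ctrl. The changes passed in 12 m (log2 change -0.60, SE 0.20, adjusted p = 0.0218) and in Ctrl28 (log2 change -0.84, SE 0.20, adjusted p = 0.00492). Leaving out 12 m array 2 or Ctrl array 2 took the former call (adjusted p = 0.126 and 0.0954), and against Ctrl28 the log2 change of 12 m was 0.25 (adjusted p = 0.428). IH5D and IH5DR2 were narrow, at 227, 230.1 and 226 and at 228, 235 and 219.7, each below Ctrl (log2 change -0.44 in both, adjusted p = 0.170 and 0.174). In IH28D the signals were 201, 167 and 212 (log2 change -0.68, SE 0.20, adjusted p = 0.0194, against Ctrl), and against Ctrl28 the log2 change was 0.16 (adjusted p = 0.677). Probe set 1424401_at had 1.33 to 22.9 and was not tested.

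S100b, a calcium-binding protein that astrocytes also release, passed in no comparison. Probe set 1434342_at had signals of 719, 971 and 1050 in Ctrl, 788, 889 and 874 in IH5D, 779, 678 and 754 in IH5DR2, 869.8, 833 and 726 in Ctrl28, 773, 677 and 814 in IH28D and 816, 783 and 798 in 12 m. Every group overlapped with Ctrl. The 95% interval of the log2 change in 12 m against Ctrl was -0.46 to 0.11, and in IH5D against Ctrl -0.37 to 0.20. Probe set 1419383_at read 373, 409.8 and 486 in Ctrl and 706, 288 and 306 in Ctrl28, where array 1 was far above the others, and without that array it was lower in Ctrl28 than in Ctrl, at -0.50 (adjusted p = 0.0183).

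Short sequences before the gene starts are shown for Gfap, Acsbg1, Aldh1l1 and Fgfr3, the genes lower at 12 months for which the table used held a window, and for Gja1, which passed in neither direction there. Fgfr3 has 2 annotated starts and so 2 windows. They are the 250 bases before the annotated start, 5′ to 3′ on the gene's strand, from RefSeq on GRCm38.p6, with windows for 7 of the 9 genes. Capitals mark matches on either strand to the hypoxia response element core (ACGTG or GCGTG), a STAT site (TTCNNNGAA), an NFI half-site (TTGGC), an AP-1 site (TGANTCA) or a CCAAT box (CCAAT, which overlaps the NFI half-site in GCCAAT).
Gfap (chr11:102897201-102897450, minus strand): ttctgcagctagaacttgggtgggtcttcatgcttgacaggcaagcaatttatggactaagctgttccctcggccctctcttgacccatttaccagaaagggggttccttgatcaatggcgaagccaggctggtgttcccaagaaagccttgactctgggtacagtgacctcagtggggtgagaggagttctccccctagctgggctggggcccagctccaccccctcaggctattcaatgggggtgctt
Acsbg1 (chr9:54661886-54662135, minus strand): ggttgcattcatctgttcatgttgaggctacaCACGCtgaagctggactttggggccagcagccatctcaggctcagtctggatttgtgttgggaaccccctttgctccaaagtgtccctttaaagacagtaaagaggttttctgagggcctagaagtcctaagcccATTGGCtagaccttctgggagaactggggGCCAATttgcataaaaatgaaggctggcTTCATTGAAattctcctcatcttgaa
Aldh1l1 (chr6:90550543-90550792, plus strand): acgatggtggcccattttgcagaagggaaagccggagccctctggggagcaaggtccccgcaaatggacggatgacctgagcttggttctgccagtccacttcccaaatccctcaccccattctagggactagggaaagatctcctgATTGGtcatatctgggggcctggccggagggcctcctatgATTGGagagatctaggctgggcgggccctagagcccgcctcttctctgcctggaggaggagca
Fgfr3 window 1 (chr5:33721474-33721723, plus strand): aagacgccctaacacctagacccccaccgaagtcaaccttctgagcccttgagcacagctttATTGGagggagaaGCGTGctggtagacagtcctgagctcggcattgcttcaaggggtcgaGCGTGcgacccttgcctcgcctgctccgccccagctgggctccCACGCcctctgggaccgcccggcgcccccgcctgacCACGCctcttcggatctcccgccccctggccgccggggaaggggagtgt
Fgfr3 window 2 (chr5:33722056-33722305, plus strand): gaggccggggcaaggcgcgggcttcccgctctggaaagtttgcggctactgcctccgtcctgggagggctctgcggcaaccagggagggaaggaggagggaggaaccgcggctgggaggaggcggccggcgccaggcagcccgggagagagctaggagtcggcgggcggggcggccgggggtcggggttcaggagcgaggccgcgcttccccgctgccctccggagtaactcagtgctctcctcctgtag
Gja1 (chr10:56377050-56377299, plus strand): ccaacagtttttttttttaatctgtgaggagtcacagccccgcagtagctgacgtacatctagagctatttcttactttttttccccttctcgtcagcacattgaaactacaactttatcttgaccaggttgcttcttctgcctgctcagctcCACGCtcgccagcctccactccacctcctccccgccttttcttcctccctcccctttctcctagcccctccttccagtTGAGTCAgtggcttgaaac

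The window of Gfap and the second window of Fgfr3 held none of these motifs, so none was common to the windows of the genes lower at 12 months. The first window of Fgfr3 held 4 hypoxia response element cores and 1 CCAAT box. The Acsbg1 window held 1 hypoxia response element core, 1 STAT site, and 2 NFI half-sites that each overlap a CCAAT box, the Aldh1l1 window held 2 CCAAT boxes, and the Gja1 window held 1 hypoxia response element core and 1 AP-1 site. Among 32851 windows of all genes, the core was in 38.6%, the STAT site in 7.02%, the NFI half-site in 41.5%, the AP-1 site in 6.75% and the CCAAT box in 33.8%. In the 8 windows of the 7 genes, they were in 4, 1, 2, 1 and 4. A match is a run of letters and not a site shown to be used.

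The 9 genes did not vary as 1 block. Over the 36 pairs of their brightest probe sets, Pearson's r of log2 signal across the 18 arrays ranged from -0.74 to 0.67 with a median of 0.06, and 22 were positive. Within groups the range was -0.86 to 0.70, with 19 positive. Probe sets of the same gene were closer, with a median r of 0.54 over 16 pairs and a range from -0.44 to 0.91. These points share arrays, groups and RNA quality. The genes with the most similar pattern to each marker, among 7103 with a mean signal above 100 and over the 18 arrays, were Ehd1 for Gfap (r = 0.94), Tial1 for Aqp4 (0.93), Eif2b4 for Acsbg1 (0.93), Tpp1 for Atp1b2 (0.93), Bcas1 for S100b (0.79), Mrpl47 for Gja1 (0.87), Dscam for Gjb6 (0.68), Polg for Fgfr3 (0.87) and Flywch1 for Aldh1l1 (0.96).

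The calls among other genes of astrocytes were split between directions, near the shares of all features at 12 months. Values are of the named gene's probe set of smallest p. The list of 40 further astrocyte genes, of which 39 had a probe set of their own (uptake of glutamate and potassium, metabolism, secreted and membrane proteins) had 65 tested probe sets. In 12 m against Ctrl, 14 were higher and 18 lower, or 21.5% and 27.7% against 26.5% and 24.1% of all, with a median log2 change of -0.09. Dio2, which activates thyroid hormone, rose (from 83.6 ± 32.1 to 273 ± 18.5, log2 change 1.78, SE 0.29, adjusted p = 0.000167; its other probe sets 0.93 (adjusted p = 0.0449) and 0.99 (adjusted p = 0.0201)), while Clu, a secreted chaperone, fell (from 3871 ± 293 to 2216 ± 194, log2 change -0.81, SE 0.13, adjusted p = 0.000145), as did Mlc1, a membrane protein of the endfeet (from 670.0 ± 67.8 to 353 ± 39.9, log2 change -0.93, SE 0.15, adjusted p = 0.000183). In Ctrl28 against Ctrl, 10 were higher and 16 lower, or 15.4% and 24.6% against 16.8% and 16.1% of all. Gpr37l1, a receptor of astrocytes, fell there (from 823 ± 65.1 to 289.9 ± 49.6, log2 change -1.52, SE 0.13, adjusted p = 1.81e-06), and Id4, an inhibitor of transcription factors, rose (from 366 ± 33.7 to 854 ± 122, log2 change 1.22, SE 0.14, adjusted p = 1.28e-05), with 0.20 (adjusted p = 0.462) and 0.49 (adjusted p = 0.0244) in its other probe sets. In IH5D 2 were higher and 1 lower, namely Id4 (from 366 ± 33.7 to 642 ± 75.1, log2 change 0.81, SE 0.14, adjusted p = 0.0112), whose other probe sets had 0.06 (adjusted p = 0.859) and 0.35 (adjusted p = 0.161), the bicarbonate transporter Slc4a4 (from 341 ± 51.4 to 513 ± 45.6, log2 change 0.60, SE 0.16, adjusted p = 0.0398), whose other probe sets had 0.28 (adjusted p = 0.517) and 0.55 (adjusted p = 0.168) and 0.44 (adjusted p = 0.301), and, lower, Mlc1 (from 670.0 ± 67.8 to 445 ± 38.5, log2 change -0.59, SE 0.15, adjusted p = 0.0353). The IH5D counts were 3.08% and 1.54%, against 5.59% and 0.663% of all. In IH5DR2 2 were higher and 2 lower, or 3.08% each, against 3.88% and 0.82% of all. Fabp7, a fatty acid carrier of glial precursors, rose (from 223 ± 56.0 to 473 ± 103, log2 change 1.09, SE 0.26, adjusted p = 0.0316). Mlc1 (log2 change -0.58, SE 0.15, adjusted p = 0.0447) and Htra1 (log2 change -0.55, SE 0.15, adjusted p = 0.0447) fell there, and the other probe set of Htra1 had -0.52 (adjusted p = 0.0630). In IH28D against Ctrl28 5 were higher and 3 lower, or 7.69% and 4.62% against 5.62% and 2.17% of all. Gpr37l1 was higher in IH28D than in Ctrl28 (from 289.9 ± 49.6 to 491 ± 65.7, log2 change 0.77, SE 0.13, adjusted p = 0.00186) and lower than in Ctrl (from 823 ± 65.1 to 491 ± 65.7, log2 change -0.75, SE 0.13, adjusted p = 0.00152), so its direction turned with the control. Slc1a2, a glutamate transporter, was lower than in Ctrl28 in 1 probe set (from 247 ± 139 to 75.0 ± 4.09, log2 change -1.49, SE 0.37, adjusted p = 0.0190) and had 0.14 (adjusted p = 0.656) and -0.20 (adjusted p = 0.575) in the others. Aldoc, a glycolytic enzyme, was also lower (from 374 ± 70.3 to 243 ± 35.6, log2 change -0.62, SE 0.15, adjusted p = 0.0190), and its other probe set had -0.06 (adjusted p = 0.834).

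The partners of the 9 proteins include the anchors of Aqp4, ligands, relatives and feedback inhibitors of Fgfr3, other connexins, pump subunits and filament proteins. Of 57 tested probe sets, 14 were higher and 13 lower in 12 m against Ctrl, or 24.6% and 22.8%, close to the 26.5% and 24.1% of all, with a median of -0.14. Of the genes named by smallest p, Dmd (dystrophin) rose (from 101 ± 23.6 to 355 ± 14.8, log2 change 1.84, SE 0.20, adjusted p = 1.31e-05) and Dag1 (dystroglycan), which binds it, fell (from 182 ± 17.3 to 95.6 ± 5.21, log2 change -0.92, SE 0.15, adjusted p = 0.000160). Spred1, an inhibitor of growth factor signaling, rose (from 131 ± 20.3 to 341 ± 67.2, log2 change 1.37, SE 0.21, adjusted p = 0.000103). Dmd was also the only partner that passed in IH5D (from 101 ± 23.6 to 185 ± 20.8, log2 change 0.89, SE 0.20, adjusted p = 0.0220). This was 1.75% of the 57, against 5.59% higher and 0.663% lower of all. In IH5DR2 2 were higher and 1 lower, or 3.51% and 1.75% against 3.88% and 0.82% of all. The higher ones were Dmd (from 101 ± 23.6 to 173 ± 26.6, log2 change 0.80, SE 0.20, adjusted p = 0.0372) and Tjp1 (log2 change 0.57, SE 0.15, adjusted p = 0.0426). The other tested probe set of Dmd had 0.42 (adjusted p = 0.334) and 0.70 (adjusted p = 0.124). Spred2 was lower in 1 probe set (log2 change -0.92, SE 0.21, adjusted p = 0.0291), beside 0.08 (adjusted p = 0.751) and 0.33 (adjusted p = 0.358) in its others. In IH28D against Ctrl28, 5 were higher and 1 lower, or 8.77% and 1.75% against 5.62% and 2.17% of all. Fgfr1, a receptor related to Fgfr3, was higher in IH28D (from 18.9 ± 3.57 to 62.0 ± 12.1, log2 change 1.72, SE 0.26, adjusted p = 0.000587), and was lower in Ctrl28 than in Ctrl (from 67.6 ± 8.41 to 18.9 ± 3.57, log2 change -1.85, SE 0.26, adjusted p = 7.81e-05). Both values use the same Ctrl28 arrays, and its other probe sets had 0.37 (adjusted p = 0.449) and -0.01 (adjusted p = 0.987) in the former. In Ctrl28 against Ctrl 9 were higher and 9 lower, or 15.8% each, against 16.8% and 16.1% of all.

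Of the genes that reactive astrocytes are known to raise, 23 of 35 were bright enough to be tested, by 36 of 84 probe sets. In 12 m against Ctrl, 2 were higher and 9 lower, or 5.56% and 25.0% against 26.5% and 24.1% of all, with a median of -0.48. The higher ones were Ptgs2, an enzyme of prostaglandin synthesis that neurons also express (from 60.4 ± 2.64 to 139.6 ± 29.3, log2 change 1.19, SE 0.19, adjusted p = 0.000137), and Osmr, a cytokine receptor (from 25.5 ± 0.558 to 45.3 ± 10.2, log2 change 0.81, SE 0.21, adjusted p = 0.00516). The second probe set of Ptgs2 had 0.01 (adjusted p = 0.982). Vim (vimentin), a filament partner of Gfap, fell (from 494 ± 52.7 to 311 ± 50.7, log2 change -0.68, SE 0.19, adjusted p = 0.00658). In Ctrl28 against Ctrl 2 were higher and 7 lower, or 5.56% and 19.4% against 16.8% and 16.1% of all. H2-D1 fell (log2 change -1.11, SE 0.19, adjusted p = 0.000392), as did Stat3, a transcription factor of the reactive state (from 153 ± 7.89 to 88.2 ± 6.51, log2 change -0.79, SE 0.15, adjusted p = 0.00103). Ptgs2 rose in 1 probe set (log2 change 0.95, SE 0.19, adjusted p = 0.00135) and had -0.18 (adjusted p = 0.604) in the other. In IH5D 1 probe set of Ptgs2 was higher (from 60.4 ± 2.64 to 111 ± 13.4, log2 change 0.87, SE 0.19, adjusted p = 0.0206) and the other had 0.30 (adjusted p = 0.437). There 1 probe set of the heat shock protein Hspb1 was lower (from 98.5 ± 20.9 to 47.1 ± 9.31, log2 change -1.06, SE 0.24, adjusted p = 0.0242), and the other had -0.64 (adjusted p = 0.123). These IH5D calls were 2.78% each of the 36, against 5.59% higher and 0.663% lower of all. In IH5DR2 the same probe set of Ptgs2 was the only one of the list to pass (from 60.4 ± 2.64 to 106 ± 5.89, log2 change 0.82, SE 0.19, adjusted p = 0.0296), beside 0.08 (adjusted p = 0.857) for the other. The IH5DR2 shares were 2.78% higher and 0% lower, against 3.88% and 0.82% of all. In IH28D against Ctrl28, 2 were higher and 2 lower, or 5.56% each, against 5.62% and 2.17% of all. The higher ones were both of H2-D1 (log2 changes 0.89 and 0.97, adjusted p = 0.00771 and 0.0242), whose other probe set had 0.68 (adjusted p = 0.121). The lower ones were S1pr3 (log2 change -0.70, SE 0.20, adjusted p = 0.0435) and S100a10, a calcium-binding protein (from 309 ± 175 to 131 ± 42.4, log2 change -1.14, SE 0.30, adjusted p = 0.0254). The other probe set of S100a10 had -0.64 (adjusted p = 0.229).

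**Figure D5:**
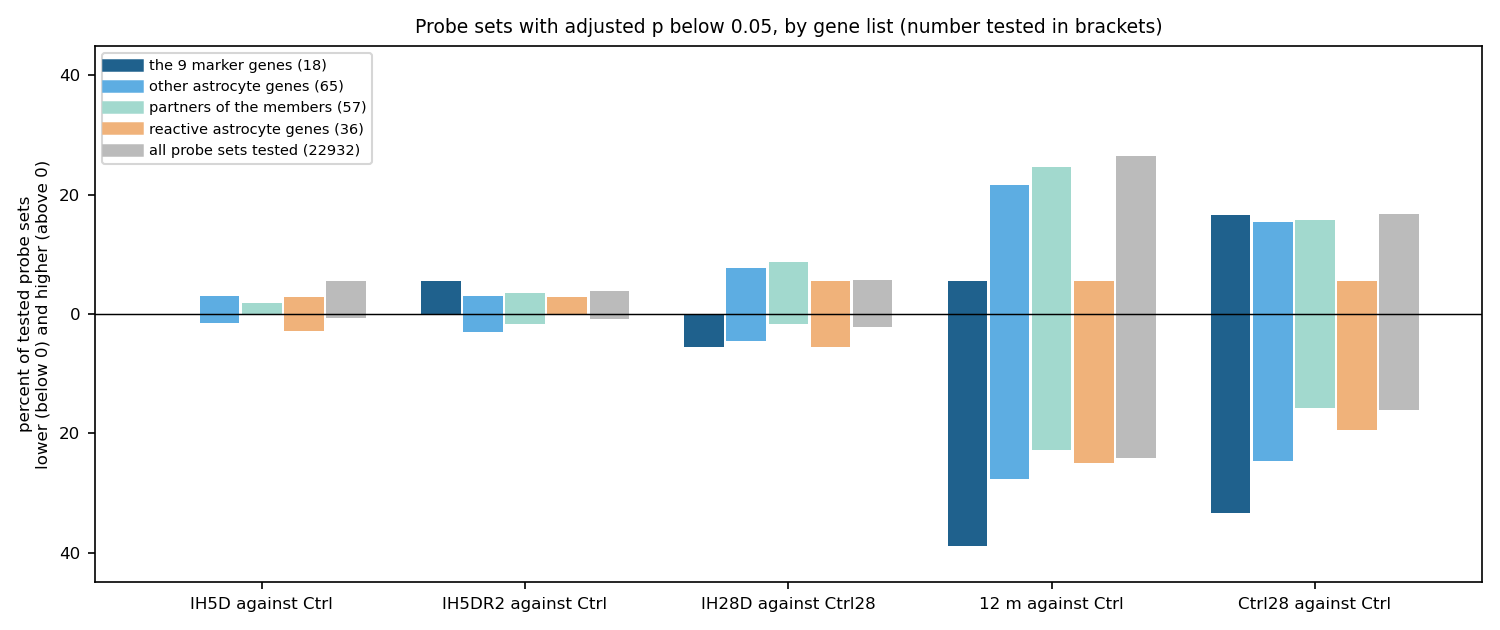
Share of tested probe sets (percent) that were higher (above 0) or lower (below 0) with an adjusted p below 0.05, for the 9 marker genes, the 3 further astrocyte lists and all 22932 probe sets, in 5 comparisons. In 12 m against Ctrl, 38.9% of the 18 marker probe sets were lower and 5.56% higher, beside 24.1% and 26.5% of all.

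Markers of other cell types were also among the calls, and their part in the values above was not tested. In 12 m against Ctrl 26.5% of all tested probe sets were higher and 24.1% lower. Of 17 choroid plexus probe sets 14 were lower (median log2 change -3.20), and of 8 ependymal ones all 8 (-1.59). In microglia 8 of 13 were lower and 1 higher, in oligodendrocytes 9 of 22 lower and 3 higher, and in their precursors 5 of 8 lower. Hippocampal neurons had 10 of 22 higher and 5 lower, neurons in general 7 of 21 higher and 4 lower, endothelial cells and pericytes 4 of 15 higher, neocortex 2 of 11 higher, and meninges 2 of 7 lower. Between Ctrl28 and Ctrl, where 16.8% of all were higher and 16.1% lower, microglia had 7 of 13 lower, oligodendrocytes 8 of 22 lower and 3 higher, their precursors 3 of 8 lower and 1 higher, and neurons in general 7 of 21 lower and 2 higher. Hippocampal neurons there had 2 of 22 higher and 2 lower, endothelial cells and pericytes 4 of 15 higher, neocortex 2 of 11 higher, and no probe set passed for choroid plexus, ependymal cells or meninges. In IH28D against Ctrl28 (5.62% and 2.17% of all), neurons in general had 6 of 21 higher and 1 lower, microglia 4 of 13 higher and 1 lower, oligodendrocytes 3 of 22 higher and 2 lower, and endothelial cells 1 of 15 lower. All 17 choroid plexus probe sets had a negative log2 change in that comparison (median -1.04), and none passed. The 3 blood genes summed to 12.1 to 50.9 on any array. In IH5D against Ctrl, 1 probe set passed in each of the lists of neurons, oligodendrocytes and endothelial cells (higher) and of meninges (lower), and none in the lists of choroid plexus, ependymal cells and microglia. The log2 change was negative there in all 8 ependymal probe sets (median -0.59) and in 13 of 17 of choroid plexus (median -0.68).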

How the data were processed

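Total RNA of mouse hippocampus was hybridised to Affymetrix Mouse Genome 430 2.0 arrays, 3 per group. Per the labels, the deposited values are log2 signals that the authors computed with MAS5, and the unlogged signals had a trimmed mean (2% left out at each end) of 100.03 to 100.04 on every array. MAS5 corrects each array alone, and dim probe sets are noisy. The table of GEO's platform annotation names 1 gene for 34958 probe sets, several for 932 and none for 9160. The 64 manufacturer controls were left out, and probe sets with a mean unlogged signal of at most 20 were not tested. All 18 arrays were fitted in 1 model with a mean per group in limma 3.58.1 (R 4.3.3, with a variance trend and 12 residual degrees of freedom), with Benjamini-Hochberg adjustment over 22932 probe sets and a threshold of 0.05. Fold changes and intervals come from this fit. Signals in the text are unlogged.

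The members, gene lists and tests were chosen with earlier results of these data known. All member probe sets are described. The probe set of highest mean signal represents a gene, and of each other list up to 3 genes of smallest p that passed were open to naming in a comparison, with 1 probe set per gene. Patterns were compared over representative probe sets with a mean signal above 100. In IH5D and Ctrl, arrays of the same replicate number deviated together (r of 0.16 to 0.23 over probe sets, 3 of 3 above 0.1). This pairing comes from the data, not from the labels. The methods' t-test is a Welch test on unlogged signals. The script was tested on simulated data. Promoter windows were read with Python 3.11.15.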

Additional observations from a re-analysis of the deposited data

Results flagged for a closer look

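The difference between the effects of 28 and 5 days of IHT on Gja1 probe set 1438945_x_at was -0.62 on the log2 scale (SE 0.18, adjusted p = 0.0468 in limma), because the effect was -0.49 against Ctrl28 and 0.13 against Ctrl. The control groups of the contrast differed from each other by 0.67, and the difference passed in 4 of 27 alternative analyses, with adjusted p between 0.0270 and 0.690.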

How the results depend on the processing

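Of 18 tested probe sets, the 8 called in 12 m against Ctrl came to 1 by the methods' t-test, 3 with Ctrl28 as the control, and 5 to 9 when any array was left out. The 9 in Ctrl28 against Ctrl came to 1 with the compared groups alone, 0 by the methods' t-test and 6 to 12 with an array left out. The 1 in IH5DR2 against Ctrl came to 0 with no minimum signal, no variance trend, quantile normalization, 20 added before log2, the replicate block or the methods' t-test, to 4 with the compared groups alone, 5 with the 3'/5' gap as a covariate and 0 to 5 with an array left out. The 1 in IH28D against Ctrl28 came to 0 with no minimum signal, no variance trend, the compared groups alone, quantile normalization or the methods' t-test, 5 with the gap, 4 with Ctrl as the control and 0 to 5 with an array left out. The 0 in IH5D against Ctrl came to 4 with the compared groups alone, 6 with the gap and 0 to 4 with an array left out, and the 0 in IH5DR2 against IH5D to 1 with the compared groups alone. The 1 in the difference of both IHT effects came to 0 with no minimum signal, no variance trend, the compared groups alone, quantile normalization, median centring or the replicate block, 8 with the gap and 0 to 7 with an array left out. For the compared groups alone, the gap and the left-out arrays, no shares of all tested probe sets are given beside these counts. The same holds for the methods' t-test, no minimum signal, no variance trend, quantile normalization, 20 added before log2 and the replicate block.

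The replicate block left the counts at 0 in IH5D against Ctrl, 1 in IH28D against Ctrl28 and 8 in 12 m against Ctrl, and gave 10 in Ctrl28 against Ctrl. Outside IH5D and Ctrl, same-numbered arrays did not deviate together in every pair (lowest r per comparison -0.32 to 0.02).

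Of 568 values of single called probe sets under the alternatives, 452 kept their direction and call, 109 lost the call and 7 changed direction. With Ctrl28 as the control, 12 m had log2 changes of 0.31 in Fgfr3, 0.071 in Acsbg1, 0.25 in Aldh1l1, and 0.20 and 0.10 in Gfap 1426508_at and 1426509_s_at. Gja1 1438945_x_at in IH28D had 0.18 with Ctrl as the control and 0.013 as the mean of all Gja1 probe sets. The cause was not tested. With 3 arrays per group an exact permutation test of a single gene cannot go below 0.1, and probe sets near a signal of 20 are little above background.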
